A study of Mus musculus with 4 samples.

Results

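Among the H3K27ac regions called in both mouse bone marrow libraries of the series, 565 carried at least 2 times as much acetylated length in the list labelled BN1 as in the list labelled control. The peaks of both lists on chromosomes 1 to 19, X and Y were merged wherever they touched or overlapped, which gave 34906 merged regions, of which 11109 held peaks of both lists. A region was kept where the base pairs covered by BN1 peaks were at least 2 times those covered by control peaks. These 565 regions are 5.09% of the shared ones. For comparison, 8536 shared regions stayed under 2 times either way and 2008 (18.1%) were at least 2 times longer in the list labelled control. The members were chosen by these covered lengths, so the lengths and everything that follows from them are given as a description.

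Both libraries came from CD45.2+ bone marrow cells of C57BL/6 mice and were prepared by H3K27ac fanChIP, a chromatin immunoprecipitation on fractionated native chromatin. The control carries the genotype label cKit(+) and the other library the label cKit(+) BRD9-NUTM1, so positivity for cKit, the stem cell factor receptor, is shared by both. BN1 is the submitters' short name for BRD9-NUTM1, a leukaemia fusion that joins a subunit of BAF chromatin remodellers to a p300-binding protein normally made in testis. How the fusion was introduced and whether animals were pooled is not given in the sources used here; the extract protocol names cKit+ BN1 cells for every sample, controls included. There was 1 library per group, so no comparison has a replicate check and no p-value was computed.

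The direction of every comparison rests on the sample titles. Peak names inside the list titled control begin with BRNU and those inside the list titled BN1 begin with BM, which reads the other way round from the titles. Peaks are called BN1 peaks or control peaks after the titles throughout, and every direction holds for the titles only. Where a pair of lengths follows a gene name, the control length comes first. Defining markers of other marrow cells were checked at gene ends. BN1 peaks lay there for 5 of 6 B cell, 6 of 6 neutrophil and 4 of 5 erythroid markers, against 1, 2 and 2 for control peaks. Macrophage markers went the other way, with 4 of 4 under control peaks and 1 of 4 under BN1 peaks. Of 4 T and NK markers, 1 had a peak in each list. Of 4 stroma and endothelium markers, 1 had control peaks and 0 had BN1 peaks. The share of all genes with a peak at an end was not computed for either list, so these counts have no background. Kit itself, which encodes cKit, lacked a peak at its ends in either list, as did Hoxa9. The other progenitor markers, Cd34 and Meis1, had 970 and 2290 bp of control peaks and no BN1 peak.

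H3K27ac marks the nucleosomes around active gene starts and active enhancers. Most active promoters carry a narrow acetylated stretch on both sides of the start, while genes that define a cell's identity and strong enhancers often carry a stretch of several kilobases. A peak caller reports such a stretch as a longer region, so at a region called in both lists the length says how far along the chromosome the mark was called and not whether it was present.

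Gene starts lay in 187 of the 565 regions, counting protein-coding genes with a start in the promoter table. The 250 bases before the start are shown for 7 of these genes, the named examples whose peaks around the start are drawn in a figure further on. They are a chemokine receptor, 3 genes of lymphocyte signalling or transcription, an antiviral deaminase, a neutrophil calcium-binding protein and a DNA synthesis enzyme. The sequences are from RefSeq on GRCm38.p6 and run 5′ to 3′ along the gene's strand, with the last base next to the start. Capitals mark matches to the searched motifs, which are given with their frequencies near the end.
Cxcr4, chr1:128592300-128592549, minus strand: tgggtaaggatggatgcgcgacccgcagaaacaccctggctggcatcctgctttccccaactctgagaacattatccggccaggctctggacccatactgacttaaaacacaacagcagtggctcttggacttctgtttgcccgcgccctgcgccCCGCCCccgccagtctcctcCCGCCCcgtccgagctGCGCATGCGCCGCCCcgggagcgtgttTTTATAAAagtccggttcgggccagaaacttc
Blnk, chr19:40994222-40994471, minus strand: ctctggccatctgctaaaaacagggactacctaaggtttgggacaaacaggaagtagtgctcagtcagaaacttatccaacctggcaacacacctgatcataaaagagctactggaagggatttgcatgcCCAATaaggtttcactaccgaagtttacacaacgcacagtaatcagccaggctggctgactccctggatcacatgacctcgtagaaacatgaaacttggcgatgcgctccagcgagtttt
Tcf3, chr10:80433636-80433885, minus strand: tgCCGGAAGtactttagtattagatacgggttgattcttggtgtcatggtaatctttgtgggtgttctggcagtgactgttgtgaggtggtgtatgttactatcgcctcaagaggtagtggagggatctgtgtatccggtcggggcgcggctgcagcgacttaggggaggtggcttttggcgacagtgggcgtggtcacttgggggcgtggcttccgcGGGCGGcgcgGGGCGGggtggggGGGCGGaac
Themis2, chr4:132796365-132796614, minus strand: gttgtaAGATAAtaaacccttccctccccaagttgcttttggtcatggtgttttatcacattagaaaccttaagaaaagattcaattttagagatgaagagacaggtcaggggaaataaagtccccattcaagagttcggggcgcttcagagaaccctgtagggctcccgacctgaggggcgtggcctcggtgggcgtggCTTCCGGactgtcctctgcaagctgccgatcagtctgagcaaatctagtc
Apobec3, chr15:79892158-79892407, plus strand: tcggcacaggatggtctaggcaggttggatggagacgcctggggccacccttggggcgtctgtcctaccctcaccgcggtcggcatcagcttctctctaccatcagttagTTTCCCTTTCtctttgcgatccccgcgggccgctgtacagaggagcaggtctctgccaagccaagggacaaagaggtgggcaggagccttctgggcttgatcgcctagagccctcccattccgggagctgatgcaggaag
S100a8, chr3:90668821-90669070, plus strand: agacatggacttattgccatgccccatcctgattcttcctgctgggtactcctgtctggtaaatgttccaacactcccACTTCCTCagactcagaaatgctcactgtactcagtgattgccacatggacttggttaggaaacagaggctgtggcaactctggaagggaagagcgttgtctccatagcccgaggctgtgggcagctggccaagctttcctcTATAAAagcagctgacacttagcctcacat
Rrm2, chr12:24708004-24708253, plus strand: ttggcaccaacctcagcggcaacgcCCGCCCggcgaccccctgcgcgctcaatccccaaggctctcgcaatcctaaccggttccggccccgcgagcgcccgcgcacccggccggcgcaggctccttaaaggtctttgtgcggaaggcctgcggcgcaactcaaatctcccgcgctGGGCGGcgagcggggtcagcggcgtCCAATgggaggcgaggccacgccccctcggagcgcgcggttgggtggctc

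These promoters differed widely in CpG content and in the motifs they held. The Cxcr4 sequence held 19 CpG dinucleotides, 3 GC boxes, an NRF1 motif at -59 that overlaps a GC box at -50, and overlapping TATA matches at -32 and -30. The S100a8 sequence held 2 CpG dinucleotides, a PU.1-type motif at -172 and a TATA box at -30. The Rrm2 sequence had 34 CpG dinucleotides, GC boxes at -225 and -75, and a CCAAT box at -50. The Blnk sequence had a CCAAT box at -120 as its only match, and the Apobec3 sequence a sole IRF-type match at -140. Tcf3 had 3 GC boxes from -32 on and an ETS motif at -248, and Themis2 a GATA motif at -244 and an ETS motif at -50.

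The regions were short under control peaks and of ordinary length under BN1 peaks. Control peaks covered a median of 417 bp (quartiles 299 and 683) and BN1 peaks a median of 1402 bp (quartiles 943 and 2174). In balanced shared regions the medians were 1339 and 1206 bp. The median ratio of BN1 to control cover was 2.76 (quartiles 2.31 and 3.87), 129 regions reached 4 times and 25 reached 8 times. The added length was under 1 kb in 310 regions (54.9%) and at least 3 kb in 21. Together the 565 regions held 977 kb of BN1 cover, 5.11% of that list, and 312 kb of control cover, 1.01% of the other.

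**Figure D1:**
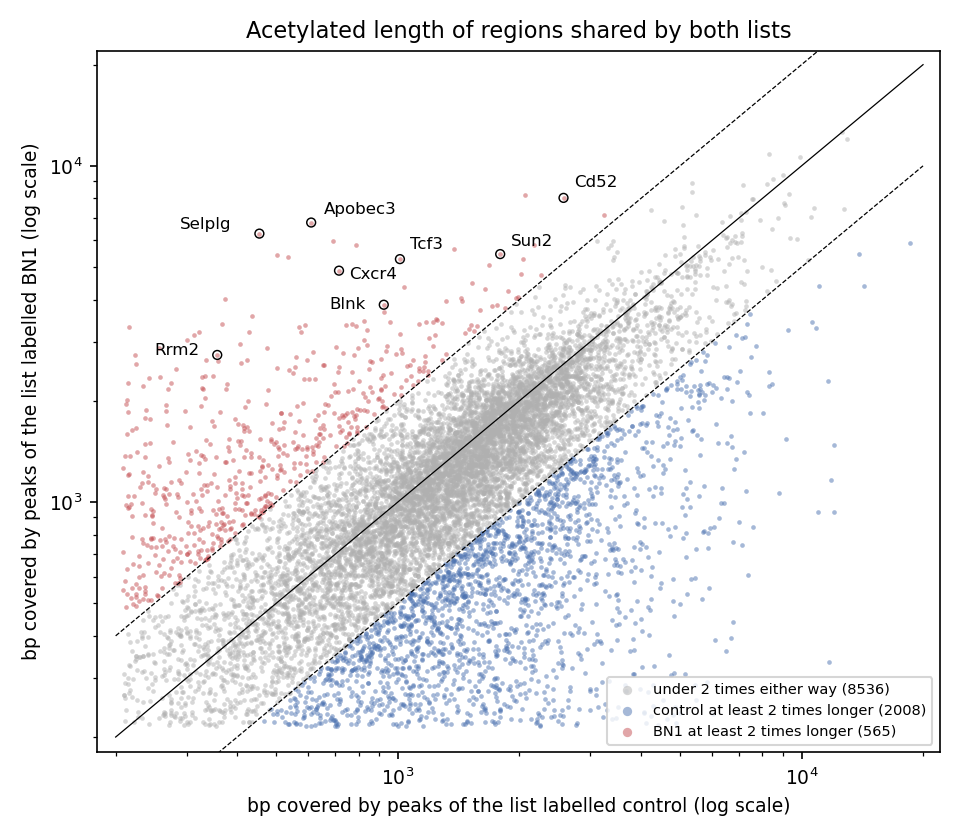
Base pairs covered by peaks in the control list (x axis, log scale) and the BN1 list (y axis, log scale) in each of the 11109 shared regions, 1 point per region; the solid line marks equal length and the dashed lines a ratio of 2 either way. The 565 regions longer in BN1 lie above the upper dashed line and mostly left of 1 kb of control cover, with Selplg (454 against 6288 bp) and Apobec3 (610 against 6784 bp) far from the line.

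The cutoff at 2 passes through a continuous distribution. Just inside it, among regions with at least 2 kb of BN1 cover, lay those at Mef2d (ratio 2.01), Paxx and Clic3 (2.03), Ifnar2 (2.04), Clint1 (2.05) and Csf2ra (2.05). Just outside lay those at Slc1a5 (1.99), Gm38457 (1.98), Dhrs7 (1.98), Rassf2 (1.98) and Mob4 (1.95). The median ratio over all shared regions was 0.855, and control peaks covered 31.0 Mb in all where BN1 peaks covered 19.1 Mb. When each length was taken as a share of its list's covered length, 1841 regions were at least 2 times longer in BN1 and 836 in control. The split between the directions thus depends on that scale. It multiplies every ratio by the same factor of 1.62, so it adds regions to the 565 and cannot remove any.

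Most members had a single peak from each list, and in most the BN1 cover ran past the control cover on both sides. These traits were counted separately, not jointly. Exactly 1 peak from each list was found in 511 regions (90.4%). The BN1 cover ran past the control cover on both sides in 421 regions (74.5%) and on 1 side in 144. Extension was lopsided, with at least 80% of the added flank on 1 side in 334 regions (59.1%). The highest point of the BN1 signal lay inside the control peak in 378 regions (66.9%), and the summits of the strongest peak of each list were a median of 118 bp apart (quartiles 50 and 326). They were more than 1000 bp apart in 33 regions.

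Fold enrichment, the authors' value at each peak's summit, was ranked within its own list. The strongest control peak of a member stood at a median percentile of 32.8 of the control list, against 76.2 in balanced regions. The strongest BN1 peak stood at a median percentile of 65.3 of the BN1 list, against 74.1 in balanced regions. Control peaks lay below the median of their list in 427 members (75.6%), and BN1 peaks reached the top 10% of theirs in 28. The median −log10 q of the control peaks was 6.24 in members and 30.7 in balanced regions. Where a weak peak ends depends on read depth and on the calling threshold. Read depth is unknown here, and its part in these lengths was not tested.

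Members lay away from gene ends more often than balanced regions did. Of the members, 262 (46.4%, 95% exact interval 42.2 to 50.6) had a protein-coding gene's end within 1000 bp, 158 (28.0%) lay inside a gene and 145 (25.7%) between genes. In balanced regions the share at gene ends was 72.1% (71.1 to 73.0), and in regions longer in control it was 50.5% (48.3 to 52.8), an interval that overlaps that of the members. Put the other way, members made up 3.53% of shared regions at gene ends, 7.19% of those inside genes and 9.78% of those between genes. The intervals cover counting error only, and regions are not replicates. The median added length was 907 bp at gene ends, 904 bp inside genes and 995 bp between genes, so the 3 positions hardly differed in size.

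**Figure D2:**
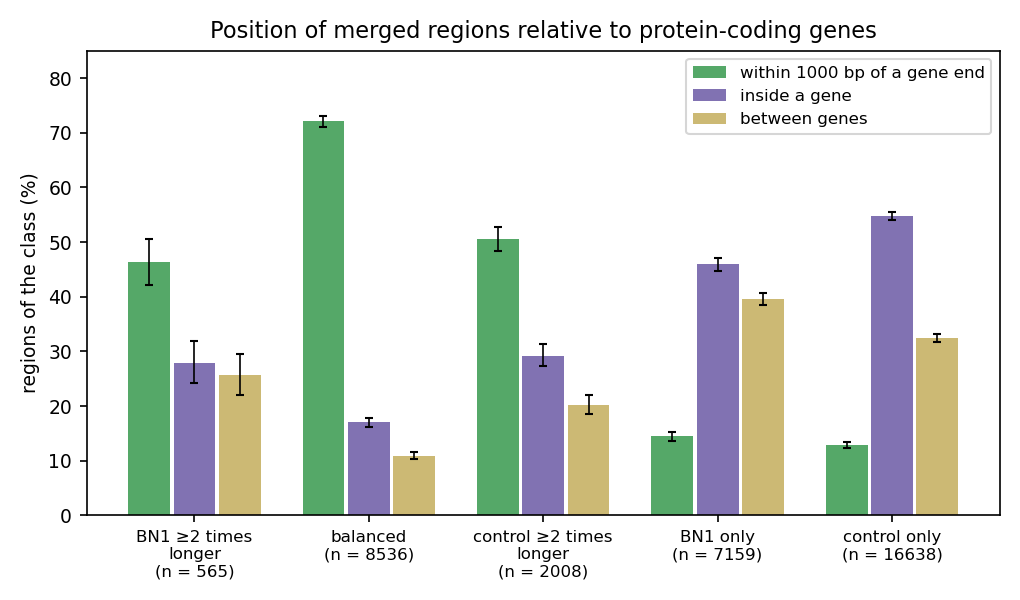
Share of regions (y axis, %) within 1000 bp of a gene end, inside a gene or between genes, for the 5 classes of merged region; error bars are 95% exact binomial intervals for counting error. Regions at least 2 times longer in BN1 have 46.4% at gene ends, between the 72.1% of balanced regions and the 14.5% of regions found in BN1 only.

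At gene starts the longer BN1 stretch reached upstream as well as into the gene. The start of exactly 1 protein-coding gene lay in 174 members. The median control cover there was 21 bp upstream and 374 bp downstream of the start, and the median BN1 cover was 425 and 898 bp. The BN1 list gained more bases downstream than upstream at 112 of these starts (64.4%) and more upstream at 62. Control peaks covered the start itself at 70 of the 174 genes (40.2%) and BN1 peaks at 166 (95.4%). At 100 bp into the gene the numbers were 122 and 173, and at 1000 bp into the gene 12 (6.90%) and 76 (43.7%). In the 737 regions longer in control that held the start of 1 gene the picture was mirrored, with median BN1 cover of 42 bp upstream and 460 bp downstream.

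**Figure D3:**
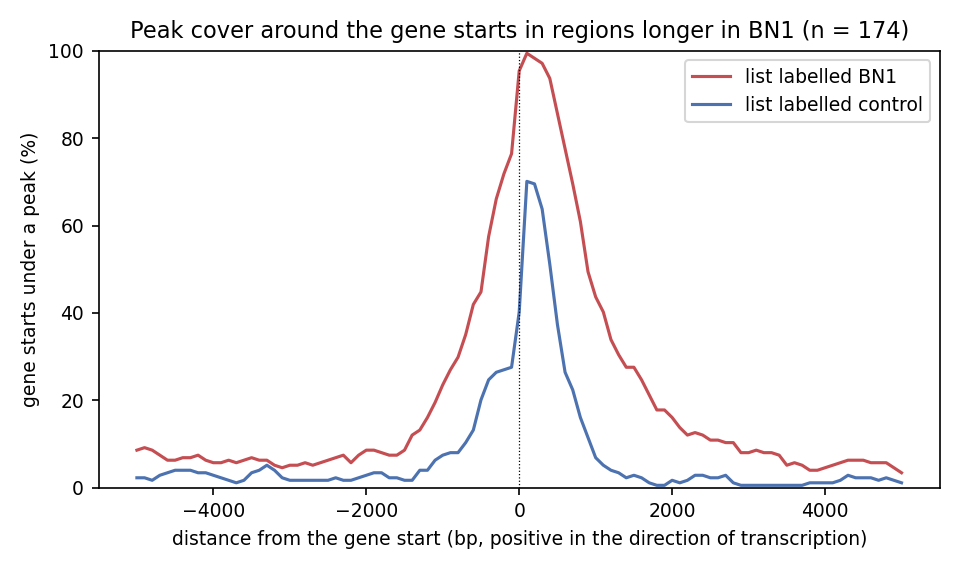
Share of the 174 gene starts (y axis, %) that have a peak at a given distance from the start (x axis, bp, positive into the gene), for BN1 peaks and control peaks. Control cover is concentrated just inside the gene (70.1% at 100 bp), whereas BN1 cover is at 73 starts or more all the way from 600 bp upstream to 1000 bp into the gene.

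Members often had further regions close by that were called in BN1 only. Such a region lay within 10 kb of 261 members (46.2%, 95% exact interval 42.0 to 50.4), of 18.4% of balanced regions and of 13.8% of regions longer in control. Regions called in control only lay within 10 kb of 138 members (24.4%), of 33.7% of balanced regions and of 54.4% of regions longer in control. These neighbours come from the same 2 lists as the members. Members themselves were mostly scattered: 415 had no other member within 100 kb, and 150 stood in 68 groups of up to 4.

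Of 8494 protein-coding genes ending within 1000 bp of a shared region, 299 (3.52%) had an end at a member and 1213 (14.3%) at a region longer in control. By the promoter table, the member lay within 1000 bp of the gene's listed start for 214 of them. For 33 it lay at an end of the gene but farther from the listed start, and the other 52 have no listed start. Other starts were not examined, so the 33 are not all shown to be opposite ends. Of 389 genes in 21 lists of blood cell types and pathways, 168 had an end at a shared region and 18 (10.7%) of these at a member. The lists were written with earlier results of these data known. A gene counted here needed a control peak too, so the many lineage genes acetylated in BN1 only are outside the count.

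B lymphoid genes were found at members in 5 of 13 cases (38.5%), beside 3.52% of all genes. The median of the highest ratio at a gene was 1.3 for the B cell receptor and surface list and 1.38 for the B lymphoid transcription factors, beside 0.891 over all 8494 genes. The receptor and surface list held 25 genes and the transcription factor list 16. Of the listed genes without a shared region, 9 in each list had an end region in BN1 only, against 2 and 0 in control only. The share of all genes with such a region was not computed, so these counts have no background. Marker genes of B cells had 17843 bp of BN1 peaks and 1314 bp of control peaks at their ends, with Ms4a1 at 0 in both. In bulk samples like these, more cells of a type and more acetylation per cell cannot be told apart.

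Tcf3 encodes the E2A proteins, E-box factors required for B cell commitment. Its region (chr10:80429912-80435191) had a control peak of 1012 bp, from -483 to 528 around the start, and a BN1 peak of 5280 bp, from -1556 to 3723. Both peaks were strong, with fold enrichments of 20.3 and 25.3 in their own lists. The region stayed at least 2 times longer in BN1 under all 5 settings that could remove a member by changing the peaks used or the minimum length: a −log10 q of at least 5 or 10, lists of equal length, the top 10000 peaks of each list and at least 500 bp of control cover.

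Blnk, the adaptor that links the B cell receptor kinase Syk to its targets, had 2 control peaks of 222 and 701 bp and a BN1 peak of 3863 bp that bridged them. Themis2, a signalling adaptor of B cells and macrophages that was in no list and was chosen after its values were seen, had a control peak of 590 bp lying 1904 to 2493 bp into the gene. The BN1 peak there ran from -115 to 3256 and so took in the start, which the control peak did not. The 6 further BN1 peaks upstream reached to -12897, and the farthest of them was itself a member, with 408 and 1523 bp. Of the same 5 settings, the 500 bp minimum alone kept the Blnk region and the region at the Themis2 start at 2 times.

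Cd52, a small surface glycoprotein of lymphocytes, shared a region with the far end of Crybg2 (chr4:134092839-134100869) of 2573 and 8031 bp. Cd74, the class II invariant chain, had 489 and 1720 bp and passed 1 of the 5 settings, the −log10 q of at least 5. For Cd79a, a signalling subunit of the B cell receptor, the member lay beyond the gene's opposite end, 3911 bp from its start and over the start of Arhgef1, with 1314 and 2754 bp. The start of Cd79a had its own regions of 422 and 1242 bp in BN1 only. Cd3d, a T cell receptor subunit, was a similar case, with 1047 and 2309 bp at a distance of 3142 bp from its start, while Cd3e, Lck and Ncr1, other T and NK cell markers, had no peak at their ends in either list.

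**Figure D4:**
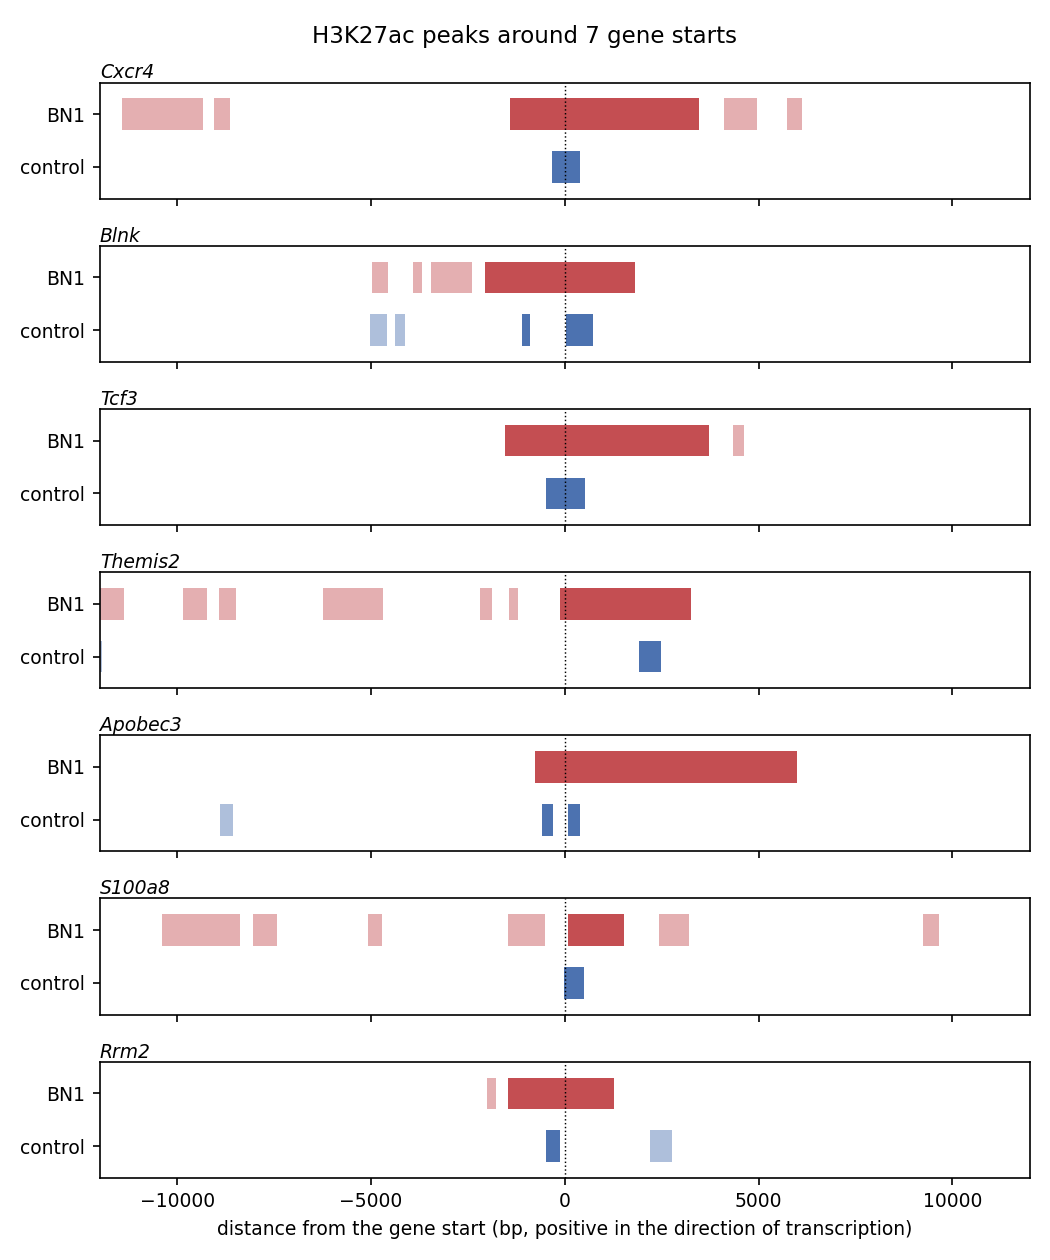
BN1 peaks and control peaks around the starts of 7 genes (x axis, bp from the start, positive into the gene); full colour marks peaks of the shared region and pale colour other peaks. At Tcf3, Cxcr4 and Apobec3 a BN1 peak of 5280, 4879 and 6784 bp spans control peaks of 1012 bp, 715 bp and 610 bp in total.

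Neutrophil genes were found at members in 5 of 16 cases (31.2%), beside 3.52% of all genes. Regions longer in control lay at 4 of the 16, Mmp9, Itgb2, Clec4d and Clec4e, named after their values were seen, where they lay at 14.3% of all genes. The median of the highest ratio was 0.871 for the granule list and 1.02 for the surface and signalling list and so near the 0.891 of genes in general. Neutrophil markers had 19619 bp of BN1 peaks at gene ends and 1038 bp of control peaks. The part that mature cells have in these lengths, B lineage or neutrophil, was not tested.

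Cxcr4, the receptor for the chemokine CXCL12 that holds blood cells in the marrow, had a control peak of 715 bp and a BN1 peak of 4879 bp. Its control peak stood at the 17.4th percentile of fold enrichment in its list and its BN1 peak at the 97.2nd in the other. Within 10 kb lay 4 regions in BN1 only, covering 3749 bp, and none in control only. The control peak is weak (−log10 q of 4.77), so a minimum of 5 leaves the region with BN1 peaks alone.

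Selplg encodes PSGL-1, the selectin ligand by which leukocytes roll on vessel walls. It had the second largest ratio of the named regions, with 454 bp of control and 6288 bp of BN1 peaks (chr5:113827942-113834229). The summits were 2119 bp apart, so the control peak was not at the centre of the BN1 stretch. Mcemp1, a membrane protein of myeloid and mast cells, had 746 and 3368 bp and, like Cxcr4, passed the 500 bp minimum alone of the 5 settings. S100a8, a subunit of the neutrophil protein calprotectin, had 508 and 1441 bp, and here the BN1 peak began 75 bp inside the gene. Hp, haptoglobin, had 281 and 575 bp.

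Apart from the cell cycle and replication list, which is described next, the other lists gave 1 gene each or none. With 3.52% of all genes at a member, a list of this size would hold 0 or 1 at the general share. Csf2ra, the GM-CSF receptor subunit, was 1 of 5 monocyte and macrophage genes, with 1846 and 3783 bp and fold enrichments of 27.1 and 30.6; 3 of the 5 lay at a region longer in control. Macrophage markers had 7611 bp of control and 591 bp of BN1 peaks at their ends. Cebpa, a factor of granulocyte commitment, was 1 of 11 myeloid transcription factors (464 and 1331 bp), of which 2 lay at a region longer in control. A separate region of 465 bp called in control only also lay at an end of Cebpa. Klf1, an erythroid factor, was 1 of 5 erythroid genes (394 and 807 bp), and erythroid markers had 621 bp of control and 5068 bp of BN1 peaks, with Gata1 at 0 in both lists. Men1, which encodes menin, was 1 of 11 leukaemia self-renewal genes (221 and 499 bp), of which 4 lay at a region longer in control. The ends of Men1 also had a region of 578 bp in control only and regions of 604 and 521 bp in BN1 only. The direction at Men1 therefore depends on which of these regions are counted. Bcl7a, a BAF complex subunit, was 1 of 23 BAF genes (863 and 2612 bp), a share close to that of all genes. The stem and progenitor list (4 genes with a shared region), the class II and dendritic cell list (5), the p300 and BET reader list (6), the interferon response list (11), the inflammatory and immediate early list (19) and the housekeeping list (15) had none, which at 3.52% of all genes says nothing particular about them. The interferon list had a median ratio of 1.32, and 7 of its 11 genes passed when lengths were scaled to the list's cover, a setting under which 15.3% of all genes passed. Inflammatory genes stood at a median of 0.729, with 5 of 19 at a region longer in control.

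Several genes of DNA synthesis were among the members. The cell cycle and replication list gave 2 of 27 genes (7.41%, beside 3.52% of all genes), Plk1, a mitotic kinase, with 523 and 1480 bp, and Rrm2, a subunit of ribonucleotide reductase, with 357 and 2739 bp. A longer list of replication and nucleotide synthesis genes was written after the members had been seen, so its count is a description of these members. It gave 11 of 53 genes (20.8%, beside 3.52% of all genes), with 1 gene at a region longer in control and a median ratio of 1.09. Besides Rrm2 these were Rrm1, the other reductase subunit (871 and 1828 bp), Dck, a nucleoside kinase (377 and 2245 bp), Ticrr, an origin firing factor (416 and 1628 bp), and Chaf1a, a histone chaperone of replicating chromatin (376 and 1318 bp). Pclaf, a partner of PCNA, had 397 and 1065 bp, and Rpa2, which binds single-stranded DNA, 550 and 1506 bp. The polymerase subunits Pola1 and Pold1 had 364 and 776 bp and 349 and 757 bp. Lig1 and Dna2, a ligase and a nuclease of lagging strand synthesis, had 514 and 1255 bp and 335 and 676 bp. Control cover was under 600 bp at 10 of the 11 genes, Rrm1 being the exception, and with at least 500 bp of control cover 3 of 41 genes were at a member, beside 1.67% of all genes.

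Histone genes of the clusters expressed in S phase were also seen among the members and counted afterwards. Of 60 such genes with an end at a shared region, 12 had an end at 7 member regions on chromosome 13, beside 3.52% of all genes at any member, and none had one at a region longer in control. The median of the highest ratio over the 60 genes was 1.47. H1f1 and H3c1 shared a region of 305 and 1675 bp, H4c6 had 424 and 1674 bp, and H2ac12 and H2bc12 shared 1080 and 2379 bp. H4c4 and H2bc6 shared 759 and 1594 bp. Histone genes of 1 class are near-identical copies, so reads between them may not be assigned with certainty, and neighbouring genes share regions.

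**Figure D5:**
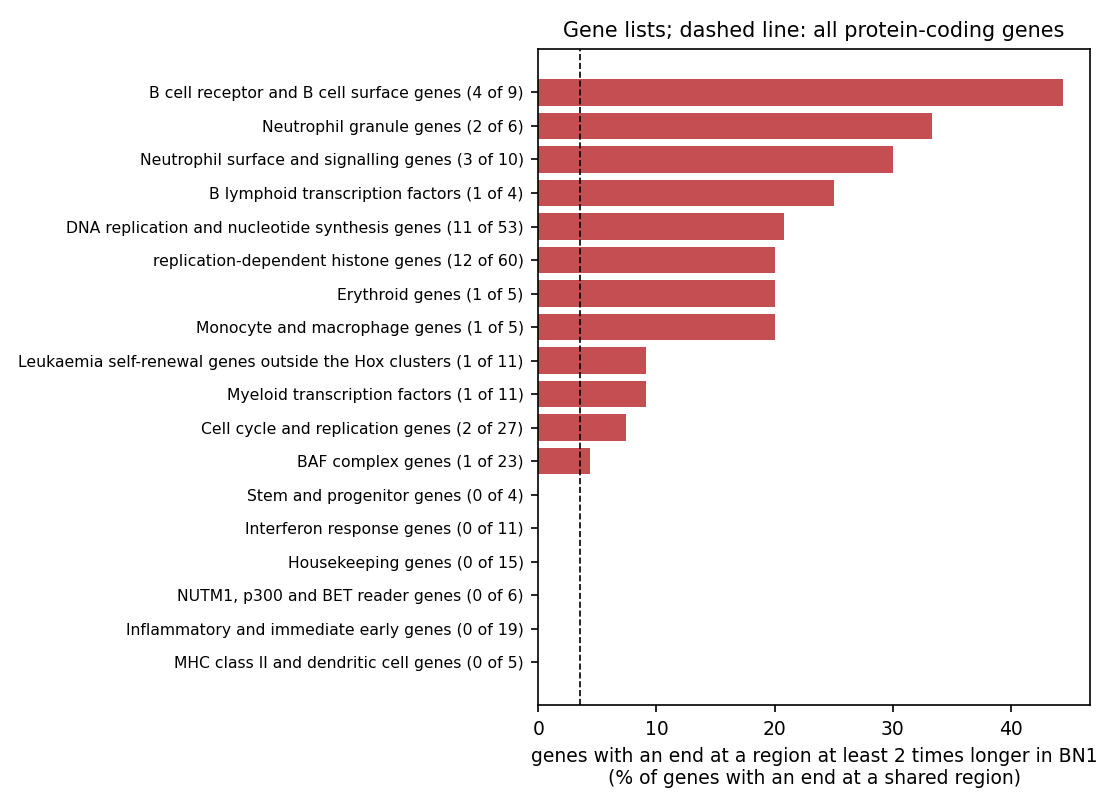
Share of genes (x axis, %) with an end at a region at least 2 times longer in BN1, out of the genes of each list with an end at a shared region; lists with at least 4 such genes are shown with their counts and the dashed line is the 3.52% of all protein-coding genes. The B cell receptor and surface list (4 of 9) and the neutrophil lists stand highest, and 6 lists have no gene; the replication and histone lists were drawn up after the members were seen.

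The largest additions of length were at Apobec3, Spatc1, Selplg, Cd52, Chst12 and Zfpm1. Apobec3, a cytidine deaminase that restricts retroviruses, had control peaks of 287 and 323 bp on either side of its start and a BN1 peak of 6784 bp from -780 to 6003. The region inside Spatc1 (chr15:76268400-76276610) was the longest member, with 2070 and 8211 bp, and passed all 5 settings, as did Zfpm1. Chst12, a chondroitin sulfotransferase, had 690 and 5985 bp. Zfpm1, which encodes the GATA1 partner FOG1, had 787 and 5820 bp with summits 3172 bp apart. Sh2d3c, an adaptor of leukocyte signalling, had 534 and 5346 bp at an end of the gene, 5221 bp from its listed start. Whether another start lies in that region was not examined.

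Further regions of this kind were at Adpgk, a glucokinase (1374 and 5645 bp), and Dgat1, an enzyme of triglyceride synthesis (2177 and 5797 bp). Another lay at ends of Jph3 and Klhdc4 far from their listed starts (3240 and 7150 bp). Inside Ubxn11 were 501 and 5416 bp, and the BN1 peak there was weak, at the 27.2nd percentile of its list. Between genes, 12539 bp from Ap1m1, lay a region of 373 and 4029 bp. Sun2, a nuclear envelope protein that links the nucleus to the cytoskeleton, had 1793 and 5465 bp and the highest fold enrichment among members, 66.7 for the BN1 peak and 24.3 for the control peak. Clint1 (58.4), Mynn (45.8), Cxcr4 (43.4) and Frat1 (39.6) followed by the fold enrichment of their BN1 peak.

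Away from gene ends, the members with most added length after those named were chosen for display after their values were seen. They were 7630 bp from Btg2, an antiproliferative gene (1681 and 5064 bp), inside Camk2b (1037 and 4377 bp), inside Tbc1d2b (435 and 3580 bp, with 6 further regions in BN1 only within 10 kb) and inside Map6, where the ratio was the highest of all members (216 and 3310 bp, 15.3 times). That ratio rests on a control peak close to the shortest among members, 209 bp, and the region passed none of the 5 settings. A region on chromosome 2 (chr2:117994926-117997968) with no protein-coding gene within 50 kb had 301 and 3043 bp and a fold enrichment of 34.4 at its BN1 peak. There were 38 such members without a protein-coding gene within 50 kb.

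Promoters in members were CpG-rich like those of other shared regions. Over 300 bases from 250 before to 50 after the start, with 1 promoter a gene, 200 promoters in members had a median of 23 CpG dinucleotides (quartiles 14.8 and 30), against 24 in balanced regions, 20 in regions longer in control and 13 over all 17491 listed promoters. Promoters with 5 or fewer CpG dinucleotides made up 6.00% (95% exact interval 3.14 to 10.2) in members, 2.77% in balanced regions and 32.7% of all. S100a8 is an example of this minority, which was uncommon in every class of shared region.

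Motifs were searched on both strands over the same 300 bases. The ETS motif CCGGAAG occurred in 12.0% of member promoters (95% exact interval 7.84 to 17.3), in 25.2% (24.1 to 26.4) of those in balanced regions, in 20.6% of those in regions longer in control and in 11.9% of all promoters. The CCAAT box was in 46.5% (39.4 to 53.7), 38.0%, 36.9% and 39.0%, in the same order. The GC box GGGCGG was in 69.5%, 71.0%, 66.5% and 46.3%. The palindromic NRF1 motif was in 5.0% (2.42 to 9.0), 2.62%, 2.04% and 1.32%, and the palindromic EBF motif in 2.5% (0.817 to 5.74), 0.736%, 0.721% and 0.943%. The ETS interval of members lies below the share in balanced regions, and the CCAAT and EBF intervals lie just above theirs, the latter with 5 promoters. These are among 13 motifs searched, without correction for their number. The intervals count promoters as separate, and a match of letters is not a bound site.

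The remaining motifs gave shares near those of balanced regions. TATAAA was in 6.50% of member promoters and 5.57% of balanced ones, GAGGAAGT (PU.1 type) in 2.0% and 3.2%, the GATA-factor letters AGATAA in 4.50% and 4.90%, and TGTGGT (RUNX) in 13% and 11.2%. TTGCNNCAA (C/EBP) was in 2.5% and 1.33%, CACGTG (E-box) in 9.0% and 10.7%, TGANTCA (AP-1) in 2.5% and 3.86%, and the IRF motif in 4.50% and 3.16%. Over all promoters the shares were 13.3%, 3.17%, 9.96%, 15.1%, 1.87%, 7.90%, 7.08% and 3.40%, in the order given.

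By chromosome, members made up between 1.78% of shared regions on chromosome 6 (10 of 562, 95% exact interval 0.856 to 3.25) and 7.39% on chromosome 13 (34 of 460, 5.17 to 10.2), leaving out Y with its 4 shared regions and no member. The interval for chromosome 6 lies below the 5.09% of all chromosomes, and those for chromosome 13 and for chromosome 7 (55 of 798, 5.23 to 8.88) lie above it. The 34 members on chromosome 13 include the 7 at histone genes described above, so the 2 observations are not separate. These are 3 of 21 chromosomes looked at, without correction for their number. Each numbered chromosome and X held members.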

How the data were processed

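The labels name 4 samples; the 2 ChIP libraries were analysed, each through 1 deposited peak list without a header, and the inputs were not analysed here. Per the submitters' processing notes the tools were MACS3 3.0.1, deepTools 3.5.1, Bowtie2 2.5.4 and Picard 3.2.0 and the build mm10 (GRCm38), in no stated order; input use, pooling and threshold were not given in the sources used here. The deposited fold enrichment (a linear ratio at the summit), the −log10 p and the −log10 q are the authors' values per peak; the deposited score was not used. No counts are given, so depth is unknown.

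On the placed chromosomes 28315 control peaks and 19140 BN1 peaks entered. They were merged at distance 0 (checked against bedtools 2.31.1 and on simulated data), and the covered bp of each list were summed per region. Genes and promoters came from RefSeq tables of GRCm38.p6, the assembly of mm10; 17491 of 21883 protein-coding genes (79.9%) had a listed start. Of 390 listed names 1 was not matched. Exact (Clopper-Pearson) 95% intervals cover counting error only. Members and lists were chosen with earlier results of these data known. Named were the 15 members with most added length, the 5 with the largest ratio at 500 bp or more of control cover, the 5 on either side of the ratio of 2 at 2000 bp or more of BN1 cover, the 5 with the highest BN1 fold enrichment, and up to 6 genes per list. Alternatives changed the peaks used, list lengths, length scale, merging distance, ratio, chromosomes, minimum control cover, gene end window (500 and 2500 bp) and neighbour distance. The software was scipy 1.17.1, pandas 2.3.3, numpy 2.4.6 and Python 3.11.15.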

Additional observations from a re-analysis of the deposited data

How the results depend on the processing

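No paired analysis was possible because each group has 1 library. The count of 565 regions became 387 with peaks under a −log10 q of 5 left out, and 606 and 618 with peaks within 500 and 1000 bp merged. It was 212 with a minimum −log10 q of 10, 340 with lists of equal length, 118 with the top 10000 peaks of each list, 1841 with lengths scaled by covered length, 1073 at a ratio of 1.5, 234 at a ratio of 3 and 224 with at least 500 bp of control cover. As a share of shared regions these were 3.99% (minimum of 5), 2.74%, 3.38%, 1.88%, 16.6%, 9.66%, 2.11% and 2.23%, and 5.69% and 5.87% with the wider merging. Under the 5 of these that change the peaks used or the minimum length (both minimums of −log10 q, equal lists, the top 10000 and the 500 bp minimum), 57 members were kept in all and 182 in none. The share at gene ends was 52.7%, 60.8%, 56.2%, 67.8%, 59.2%, 51.1% and 52.7% in the order minimum of 5, minimum of 10, equal lists, top 10000, scaled, ratio 1.5 and 500 bp, and 50.8% with a 2500 bp window. Balanced regions under the same settings had 75.5%, 79.5%, 74.9%, 81.6%, 71.2%, 74.6%, 74.9% and 75.8%. Regions longer in control had 56.1%, 65.3%, 51.5%, 68.3%, 40.2%, 57.1%, 50.6% and 55.5%. Members thus stood above regions longer in control with equal lists, scaled lengths and the 500 bp minimum, and below them in the rest of these settings. Listed genes at a member numbered 9 (minimum of 10), 3 (top 10000), 41 (scaled), 9 (ratio 3) and 11 (500 bp), against 18. The share of all genes at a member moved too, from 3.52% to 2.32% (minimum of 10), 1.67% (top 10000), 15.3% (scaled) and 1.67% (500 bp). At a ratio of 3 it was not computed. With the top 10000 peaks, 1 of 7 B lymphoid, 0 of 6 neutrophil, 0 of 24 replication and 8 of 49 histone genes were at a member, beside 1.67% of all genes; 4 of those 8 histone genes were among the 12. Regions in BN1 only lay within 5 kb of 39.1% and within 50 kb of 69.7% of members, and regions in control only of 15.9% and 61.8%. The cause of these shifts was not tested. Control peaks below the median of their list made up 75.6% of members, and depth, which is unknown, limits how far a weak peak could be called.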
